A study of Homo sapiens with 36 samples.

Results

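RYR2 and 6 genes of inositol phosphate signaling and calcium release, ITPR1, ITPR2, ITPR3, PLCG1, PLCG2 and ITPK1, were followed through RNA-Seq of melanoma cells with inducible NR2F1. These 7 genes, of 60656 with a value, were picked because RYR2, PLCG2 and ITPK1 moved with doxycycline (DOX) in WM793 cells. Their values under DOX in that line are therefore given as a description with no test. The cells came from 3 BRAF-mutant human melanoma lines (A375TR-NR2F1, 1205LuTR-NR2F1, WM793TR-NR2F1), all carrying a Tet repressor and an NR2F1 cDNA, brought in by lentivirus, that DOX switches on. Each line received the vehicle DMSO or the combination BRAFi + MEKi, each without and with DOX, for 72 hours, in 3 replicates, which gave 12 groups and 36 libraries. BRAFi was PLX4720 at 1 uM, MEKi was PD0325901 at 35 nM and DOX was used at 100 ng/mL. The labels place 24 hours with or without DOX before the treatment, whereas the methods describe DOX at that stage for the cells as a whole. No library received DOX in cells without the NR2F1 cDNA, so DOX itself and NR2F1 cannot be told apart. A375 cells were grown in another medium than the other lines, so line and medium cannot be told apart either.

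Calcium is stored in the endoplasmic reticulum and released by channels in its membrane. Phospholipases C of the gamma type, encoded by PLCG1 and PLCG2, act below receptor tyrosine kinases and immune receptors and cut a membrane phosphoinositide into diacylglycerol and inositol trisphosphate (IP3). IP3 opens the IP3 receptor channels encoded by ITPR1, ITPR2 and ITPR3. RYR2 encodes the ryanodine receptor best known as the calcium release channel of heart muscle, and PLCG2 is best known from B cells. ITPK1 encodes a kinase that acts further along the inositol phosphate pathway, on molecules made from IP3, toward the higher inositol phosphates.

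In GRCh38 with GENCODE 44 annotation, RYR2 lies at chr1:237042184-237833988 and ITPR1 at chr3:4493345-4847506, both on the plus strand. ITPR2 lies at chr12:26335352-26833194 on the minus strand and ITPR3 at chr6:33620365-33696574 on the plus strand. PLCG1 is at chr20:41136960-41196801 and PLCG2 at chr16:81779279-81962685, both on the plus strand, and ITPK1 at chr14:92936914-93116320 on the minus strand. All 7 are protein-coding genes. UQCC2, on the opposite strand, shares 10.4% of the exon bases of ITPR3, and ZHX3 shares 2.78% of those of PLCG1. The library kit does not mark strand, so reads in these stretches cannot be assigned to a strand.

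The sequence upstream of the gene start is shown for RYR2 and ITPR1, which both encode release channels. The RYR2 stretch is chr1:237041934-237042183 and the ITPR1 stretch is chr3:4493098-4493344, both on the plus strand of GRCh38.p14 from RefSeq, and each ends at the base before the GENCODE gene start. Capitals mark GGGCGG, a GC box, or its complement CCGCCC.
RYR2: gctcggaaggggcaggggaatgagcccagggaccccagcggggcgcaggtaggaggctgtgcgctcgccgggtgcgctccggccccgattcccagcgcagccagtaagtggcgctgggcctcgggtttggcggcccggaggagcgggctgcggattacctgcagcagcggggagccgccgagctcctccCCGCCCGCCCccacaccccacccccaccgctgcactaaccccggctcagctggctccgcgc
ITPR1: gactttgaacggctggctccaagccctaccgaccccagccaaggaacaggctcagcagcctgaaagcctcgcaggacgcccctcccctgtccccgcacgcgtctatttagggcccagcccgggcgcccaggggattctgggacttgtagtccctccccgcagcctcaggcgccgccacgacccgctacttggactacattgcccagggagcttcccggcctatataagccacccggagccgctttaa
RefSeq windows of 250 bases upstream were at hand for 6 of the 7 genes, with 7 windows in all. Only those of RYR2 and ITPR1 lie at the GENCODE gene starts given above. The PLCG2 window, chr16:81738791-81739040, lies far before the GENCODE start, so the stretch next to that start was not searched. The ITPR3, PLCG1 and ITPK1 windows lie inside the GENCODE gene spans, 1 of ITPK1 far inside, at chr14:93036975-93037224. The RYR2 window held 2 GC boxes and the ITPR1 window none. The sequence AGGTCA, a binding motif of nuclear receptors including the NR2F type, searched on both strands, was in 0 of the 7 windows and in 12.1% of all 35116 windows. These letters being absent says nothing of more distant or variant sites. GGGCGG or its complement was in 5 of the 7 windows and in 42.6% of all windows.

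Each library held between 27027824 and 34621958 units of normalized expression in total, with a median of 30838343. An approximate read number, estimated from the commonest value above 0, had a median of 29700000 and was lowest, at 6600000, for replicate 1 of WM793 with DMSO. The commonest low value in that library was 5.09, about 1 read, so the 0 listed there for PLCG2 cannot be set against values near 1 in the other libraries. NR2F1, the induced gene, was checked first. It was 3594 ± 2321 in 1205Lu with DMSO (SD, n = 3, as for every value in this form) and 13041 ± 6632 with DMSO + DOX, 916 ± 595 and 64937 ± 11805 in WM793, and 488 ± 79.4 and 22635 ± 7839 in A375. Under BRAFi + MEKi it went from 3449 ± 979 to 33791 ± 2557 in 1205Lu, from 1758 ± 1677 to 42977 ± 11003 in WM793 and from 1327 ± 104 to 24797 ± 10386 in A375. In each line the libraries with DOX lay above those without it, as the labels have it. Reads of the introduced cDNA count toward these values. In bulk RNA, fewer cells of a type and less RNA per cell cannot be told apart. Of 9 melanocyte lineage markers, 4, 5 and 5 had mean values of at least 10 in 1205Lu, WM793 and A375. In every line these included the regulators MITF and SOX10 and the pigment genes PMEL and DCT. The pigment genes MLANA and TYR averaged under 1. All 10 markers of the invasive melanoma state exceeded 10. Of 8 heart muscle markers, 1 or 2 per line reached a mean of 10 (NKX2-5 in every line and TNNI3 in WM793), and their summed level was between 57.6 and 427 over all libraries. Of 8 blood cell markers, 1 or 2 per line did, led by CD68, and the defining blood gene PTPRC averaged 7.80 or less in each line. Of 6 keratinocyte markers 2 did in each line, and of 7 neuron markers 5 did.

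Before any treatment the lines differed most in RYR2 and, in the pairs that include WM793, in PLCG2. RYR2 was 1.31, 0 and 2.86 in the 3 1205Lu libraries with DMSO, 30.3, 77.6 and 65.4 in WM793, and 432, 363 and 478 in A375. No library of one line overlapped those of another. PLCG2 had the reverse order in the first pair of lines: 283, 276 and 302 in 1205Lu, 0, 1.01 and 1.38 in WM793, and 173, 136 and 122 in A375. By limma's moderated test on log2(value + 1), RYR2 was higher in A375 than in 1205Lu by 7.67 ± 0.70 (SE, adjusted p = 1.4e-10). PLCG2 was not called in that pair. Its log2 difference there was between -1.15 and -0.882 over 13 alternative fits, of which 2 called it. All WM793 libraries served to choose the list, so for RYR2, PLCG2 and ITPK1 every difference that involves this line is given without a test. RYR2 was higher in A375 than in WM793 by 2.95 on the log2 scale, and PLCG2 was lower in WM793 than in 1205Lu, a log2 difference of -7.42. Differences against values near 0 depend on the pseudocount: with 0.1 or 10 in place of 1, the WM793 against 1205Lu value for PLCG2 ran between -9.04 and -4.78.

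The 3 IP3 receptor genes did not share a pattern over the lines. ITPR1 was highest in 1205Lu, at 1878 ± 325 against 340.3 ± 16.7 in WM793 and 460.1 ± 86.1 in A375, a log2 difference of -2.45 ± 0.28 for WM793 and of -2.03 ± 0.28 for A375 (limma adjusted p = 2.42e-08 and 3.19e-07). ITPR3 was also highest in 1205Lu, at 8449 ± 1471 against 4960.1 ± 518 and 4857 ± 1341, with log2 differences of -0.76 and -0.82. ITPR2 was 1532 ± 392, 1704 ± 593 and 1661 ± 114 in the order 1205Lu, WM793 and A375, and no pair of lines passed the test. PLCG1 was 18892 ± 3970 in WM793, 9242 ± 1113 in 1205Lu and 4564 ± 649 in A375, and every pair passed. ITPK1 was 4428 ± 1064 in 1205Lu and 4248 ± 745 in WM793, which overlap, and 1994 ± 167 in A375, lower than in 1205Lu (limma adjusted p = 1.39e-05). Of the 7 genes, 5 were called between A375 and 1205Lu, where 46.8% of all 26779 genes tested were. Of the 4 genes whose values did not choose the list (ITPR1, ITPR2, ITPR3 and PLCG1), 3 were called between WM793 and 1205Lu, where 30.7% of all genes were, and 1 between A375 and WM793, where 47.5% were.

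Per kilobase of the canonical transcript, PLCG1 had the highest level of the 7 in every line with DMSO, at 1303 ± 157 in 1205Lu, 2664 ± 560 in WM793 and 644 ± 91.5 in A375. ITPR3 and ITPK1 followed, at 931 ± 162 and 716 ± 172 in 1205Lu and 546 ± 57.1 and 686 ± 120 in WM793, and in neither line did they differ beyond their spread. In A375, ITPR3 was at 535 ± 148 per kilobase, with a spread that reaches the mean of PLCG1, and ITPK1 at 322 ± 27.1. ITPR1 exceeded ITPR2 in 1205Lu, at 189.6 ± 32.8 against 122 ± 31.2 per kilobase, and was below it in WM793, at 34.3 ± 1.68 against 136 ± 47.2, and in A375, at 46.4 ± 8.69 against 132 ± 9.08. RYR2 reached 25.6 ± 3.49 per kilobase in A375 and 3.48 ± 1.48 in WM793, and PLCG2 33.2 ± 1.54 in 1205Lu and 16.6 ± 3.04 in A375. The lowest 2 were RYR2 in 1205Lu and PLCG2 in WM793, each under 1 per kilobase in every DMSO library.

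The DOX comparison asked which genes moved when NR2F1 was switched on, and WM793 is where the list was chosen. RYR2 was 208, 490.0 and 367 in WM793 with DMSO + DOX, above all 3 DMSO libraries. Under BRAFi + MEKi it was 0.866, 10.97 and 14.5, and with DOX added 212, 296 and 287. The difference in mean log2(value + 1) was 2.62 under DMSO and 5.23 under BRAFi + MEKi. The library at 0.866, replicate 1, makes the second value larger, and a difference against values this low depends on the pseudocount. With DOX the libraries of both conditions overlapped, while without DOX those under BRAFi + MEKi lay below those under DMSO. PLCG2 was 38.6, 61.5 and 34.5 with DMSO + DOX, against 0, 1.01 and 1.38 without DOX. Under BRAFi + MEKi it was 0, 10.0 and 30.7 without DOX and 65.3, 50.2 and 64.0 with it, so these libraries again did not overlap, although 1 of the 3 without DOX stood at 30.7. PLCG2 with DOX in WM793 stayed below every 1205Lu and A375 library.

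ITPK1 went the other way. In WM793 it was 3389, 4716 and 4638 with DMSO and 2966, 2746 and 2906 with DMSO + DOX. Under BRAFi + MEKi it was 7662, 7980.2 and 6869.7, and with DOX 4079, 3235 and 3485, roughly the level of the untreated cells. The log2 differences were -0.55 and -1.06. In the same comparisons ITPR1 differed by -0.63 and -0.15, ITPR2 by -0.52 and 0.03, ITPR3 by -0.52 and -0.15, and PLCG1 by -0.40 and -0.14, under DMSO and under BRAFi + MEKi respectively. Libraries with and without DOX did not overlap for 5 of the 7 genes under DMSO and for 4 under BRAFi + MEKi, beside 13.3% and 14.0% of the 22074 genes tested. The list was picked on these values, so nothing is read from these counts. For scale, 0.512% and 0.204% of all genes were called in these comparisons. These shares are 113 and 45 genes, 284 and 127 when the replicate number was a block, and 419 and 478 with array weights.

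**Figure D1:**
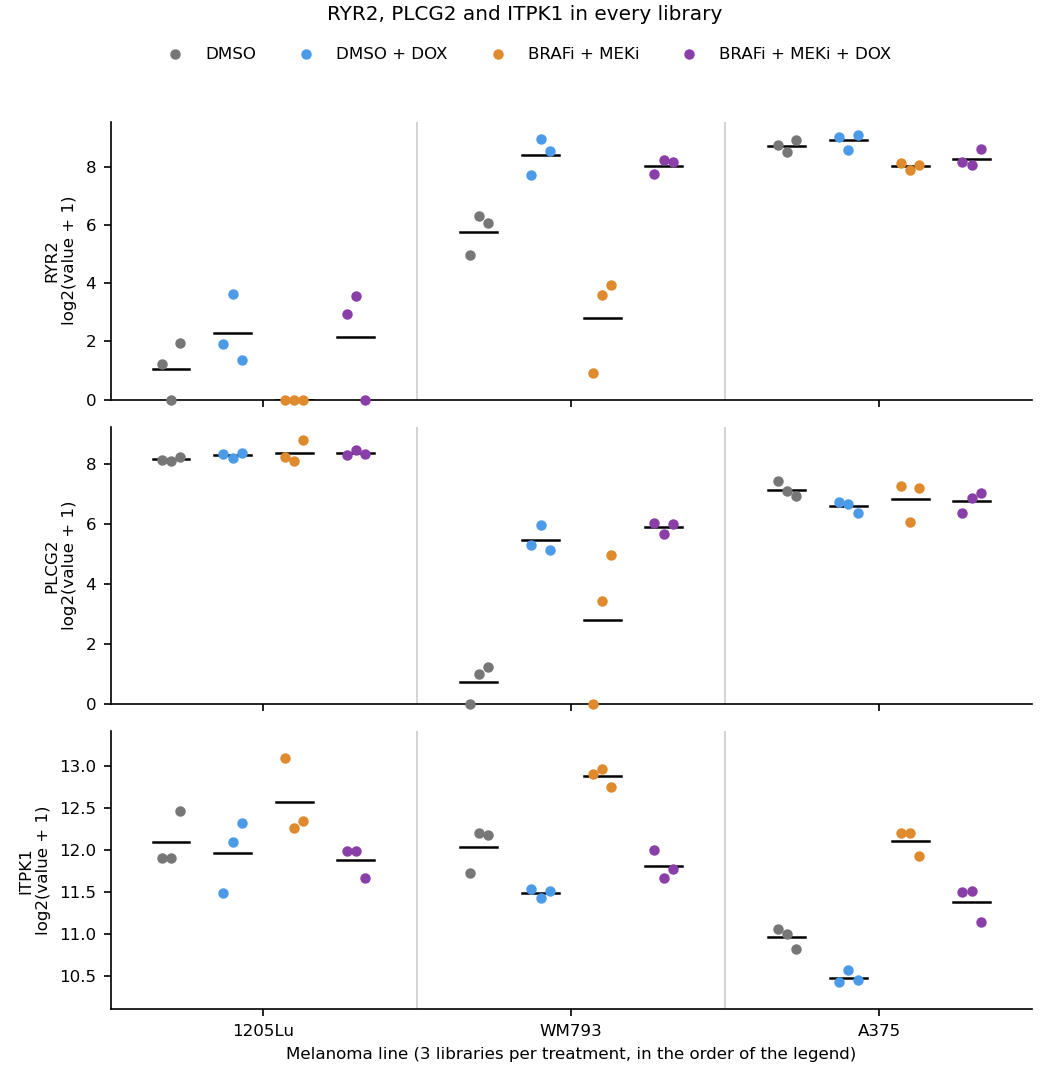
RYR2, PLCG2 and ITPK1 on the log2(value + 1) scale (vertical axes, each with its own range) in the 3 lines, with 1 point per library and a line at the mean of 3. In WM793 the RYR2 and PLCG2 points with DOX lie above those without it, RYR2 in 1205Lu reaches no more than 3.62, and ITPK1 is highest under BRAFi + MEKi without DOX in WM793 and A375.

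Outside WM793, DOX changed 1 of the 7 genes in 1 of 4 comparisons. ITPK1 in A375 was 4714, 4709 and 3881 under BRAFi + MEKi and 2893, 2916 and 2261 with DOX added, with no overlap. It fell by 0.72 ± 0.12 on the log2 scale (limma adjusted p = 0.00537), and the call held in all 14 alternatives run, with adjusted p between 0.000467 and 0.0493. Of all 24370 genes tested 1.52% were called in that comparison, and 0.152% fell. The block called 601 genes there in place of 370, and array weights 1035. In 1205Lu the corresponding values were 8709, 4902 and 5188 without DOX and 4056, 4065 and 3250 with it, again without overlap. The difference there was -0.68 ± 0.25 and missed the threshold (limma adjusted p = 0.355, between 0.0895 and 0.801 over the alternatives). Whether the DOX effect on ITPK1 differs between 1205Lu and A375 was not tested. Under DMSO the log2 difference of ITPK1 was -0.48 ± 0.12 in A375 (limma adjusted p = 0.292) and -0.12 ± 0.25 in 1205Lu (adjusted p = 0.97).

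RYR2 and PLCG2 were not called with DOX in 1205Lu or A375. RYR2 in A375 was 522, 384 and 543 with DMSO + DOX, overlapping the DMSO libraries, and its log2 difference had a 95% interval of -0.23 to 0.58. Under BRAFi + MEKi it was 276, 237 and 266 without DOX and 283, 264 and 388 with it, with an interval of -0.16 to 0.65. In 1205Lu it was 2.79, 11.3 and 1.58 with DMSO + DOX, was listed at 0 in all 3 BRAFi + MEKi libraries, and was 6.66, 10.7 and 0 with DOX added. The intervals of its DOX difference in 1205Lu were -0.63 to 3.13 under DMSO and 0.28 to 4.04 under BRAFi + MEKi. The latter difference, 2.16 ± 0.88, missed the threshold (limma adjusted p = 0.422) and ran from 0.594 to 4.276 over the alternatives. PLCG2 in 1205Lu was 321, 294 and 333 with DMSO + DOX, and the intervals of its DOX difference were -0.29 to 0.57 under DMSO and -0.45 to 0.41 under BRAFi + MEKi. In A375 PLCG2 was 106, 101 and 82.3 with DMSO + DOX, below every DMSO library, a difference of -0.56 ± 0.31 that missed the threshold (limma adjusted p = 0.692).

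The IP3 receptor genes and PLCG1 were not called with DOX in these lines either. ITPR2 in 1205Lu was 1847, 1093 and 1655 with DMSO and 2472, 2307 and 2239 with DMSO + DOX, a log2 difference of 0.64 ± 0.19 (limma adjusted p = 0.622). Under BRAFi + MEKi its difference was 0.48 ± 0.19 (limma adjusted p = 0.419), and in both comparisons the libraries with DOX lay above those without it. ITPR3 in 1205Lu was 5559, 5247 and 5713 under BRAFi + MEKi and 4197, 3744 and 3801 with DOX, a difference of -0.49 ± 0.14 (limma adjusted p = 0.171, and 0.0102 with array weights). ITPR2 in A375 differed by 0.55 ± 0.19 under BRAFi + MEKi (limma adjusted p = 0.249, and 0.0218 with array weights). By limma's adjusted p, 0 of 7 genes passed for DOX under DMSO in 1205Lu, where 0.00903% of 22144 genes did, and in A375, where 0.0492% did; at an unadjusted p under 0.05 it was 1 of 7 in each, beside 6.85% and 7.95% of all genes. The A375 share is 12 genes, 79 under the replicate block and 23 with array weights. Under BRAFi + MEKi in 1205Lu it was 0 of 7, beside 0.334% of all genes, and at an unadjusted p under 0.05 it was 4 of 7, beside 9.72%. The 0.334% are 74 genes, which became 364 with the replicate block, with the count still at 0 of 7, and 1379 with array weights, with ITPR3 called. The difference between both DOX effects was called by limma for 0 of 7 genes in 1205Lu (0.0% of all genes) and in A375 (0.46%), with 1 of 7 at an unadjusted p under 0.05 in each, beside 5.72% and 7.25% of all genes.

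**Figure D2:**
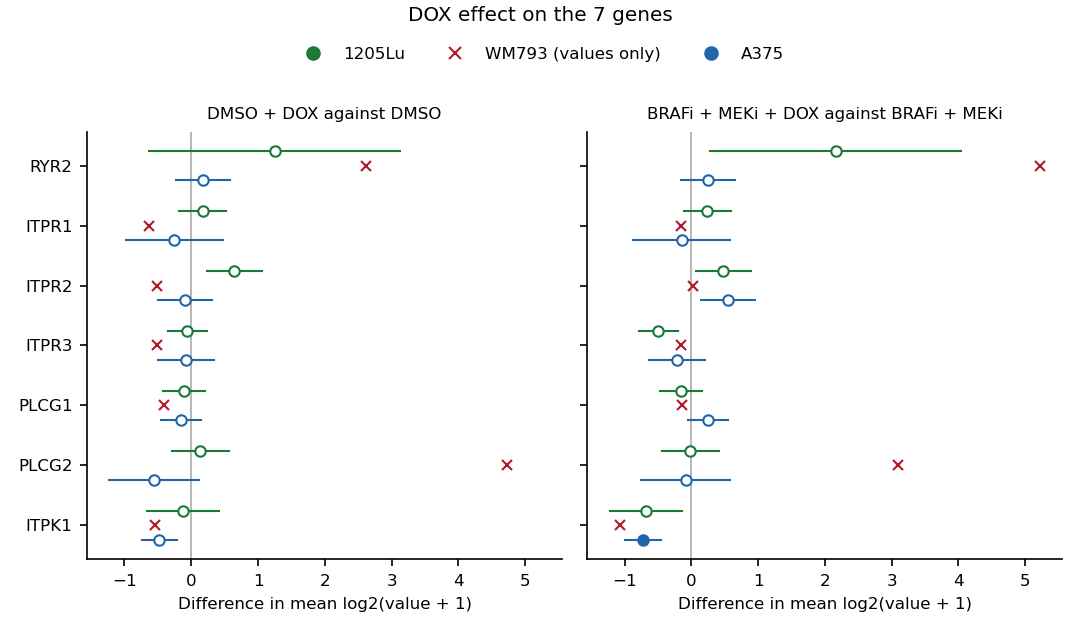
Difference in mean log2(value + 1) with DOX (horizontal axis) for the 7 genes under DMSO (left) and under BRAFi + MEKi (right), with 95% intervals for 1205Lu and A375. Crosses are the WM793 values, which carry no test, and the 1 filled point, ITPK1 in A375 under BRAFi + MEKi, passed an adjusted p of 0.05.

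BRAFi + MEKi against DMSO asked how the genes answer to the drugs alone, and the IP3 receptor genes come first. In WM793, RYR2, PLCG2 and ITPK1 are again given without a test. ITPR1 rose in 1205Lu, where it was 2241, 1614 and 1780.2 with DMSO and 5918, 5902 and 6003 with BRAFi + MEKi, a log2 difference of 1.67 ± 0.16 (limma adjusted p = 8.51e-06). In WM793 it fell, from 348, 321 and 351 to 281, 173 and 151, by 0.80 ± 0.24 on the log2 scale (limma adjusted p = 0.0195). The adjusted p was 0.0698 when replicate 2 of the BRAFi + MEKi libraries was left out, 0.0906 when replicate 3 was, and 0.0756 after rescaling libraries to the same total. In A375 ITPR1 was 535, 366 and 479.8 with DMSO and 604, 264 and 234 with BRAFi + MEKi, and the difference of -0.44 ± 0.34 was not called, but was without BRAFi + MEKi replicate 1, at -0.87 (limma adjusted p = 0.0391). The line difference itself was tested: the ITPR1 response was lower in WM793 than in 1205Lu by a log2 difference of -2.48 ± 0.39 (limma adjusted p = 4.36e-05) and lower in A375 than in 1205Lu by -2.12 ± 0.39 (adjusted p = 0.000359). Both held without any single library.

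ITPR3 fell in all 3 lines. It went from 9955, 7016 and 8377 to 5559, 5247 and 5713 in 1205Lu, by 0.60 ± 0.14 on the log2 scale. In A375 it went from 4321, 3867 and 6383 to 2306, 2405 and 2609, a difference of -0.96 ± 0.20 (limma adjusted p = 0.00147). In WM793 it went from 4661, 5559 and 4661 to 3451, 3958 and 3957, a difference of -0.39 ± 0.10 (limma adjusted p = 0.00888, and 0.154 after rescaling libraries to the same total). UQCC2, whose exons overlap those of ITPR3, had a median of 1294 over the libraries, and its part in the result was not tested. ITPR2 fell in 1205Lu, from 1532 ± 392 to 899 ± 169, and in WM793, from 1704 ± 593 to 778 ± 108, with log2 differences of -0.75 ± 0.19 and -1.08 ± 0.20 (limma adjusted p = 0.00927 and 0.000803). In A375 it was 1254 ± 320 against 1661 ± 114, which was not called (limma adjusted p = 0.0849), but was with array weights (0.00949) and without BRAFi + MEKi replicate 3 (0.0169).

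**Figure D3:**
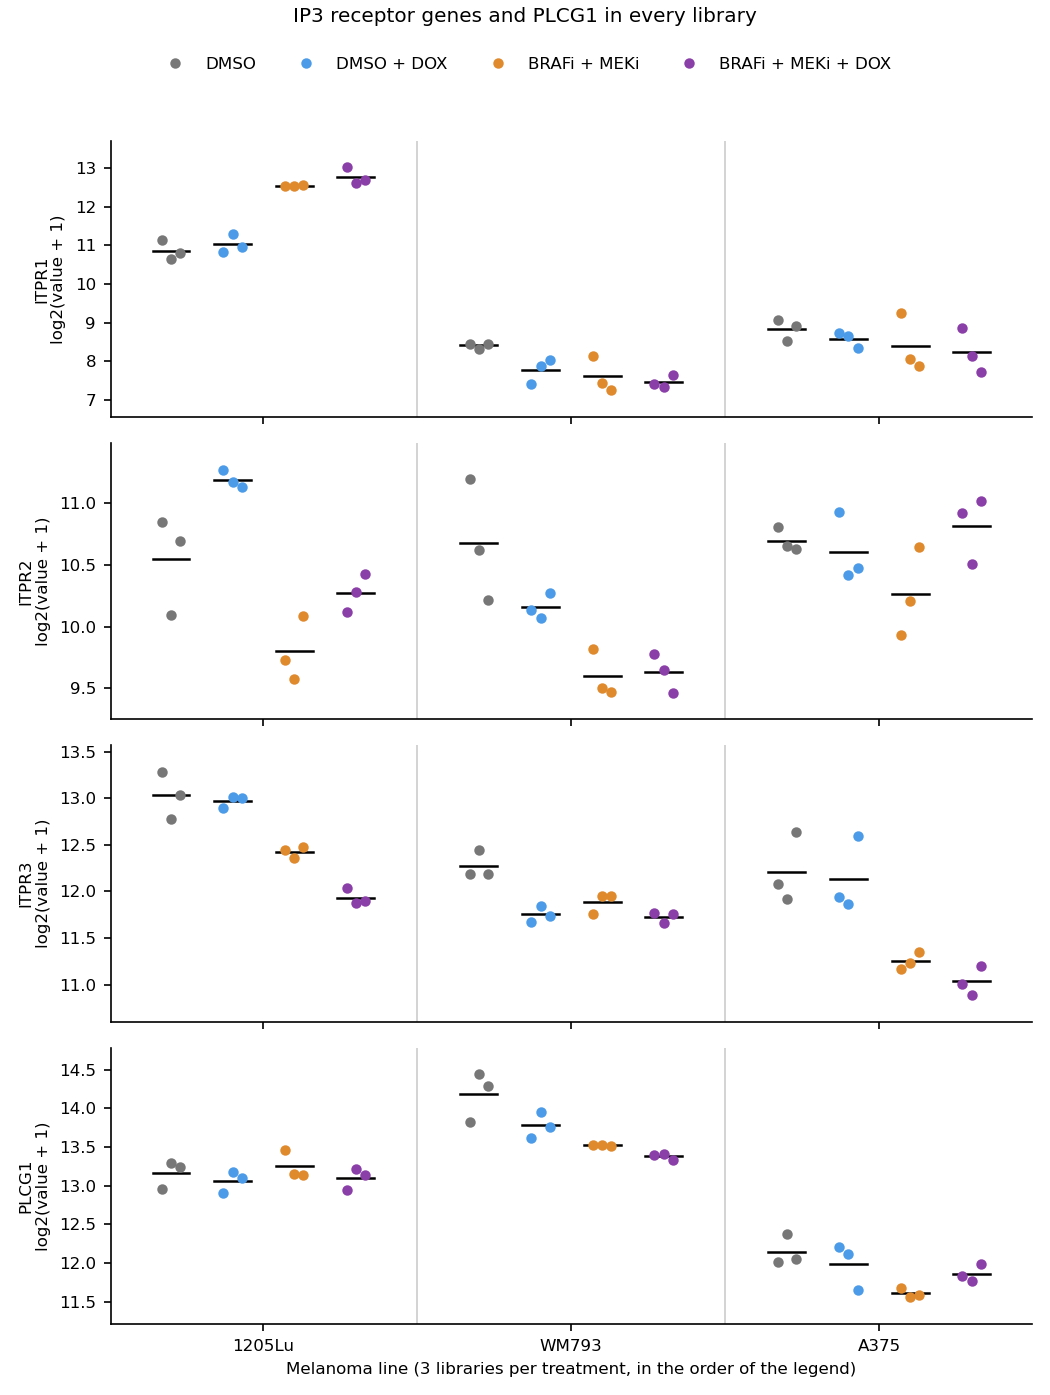
ITPR1, ITPR2, ITPR3 and PLCG1 on the log2(value + 1) scale (vertical axes, each with its own range) in every library, with 1 point per library and a line at the mean of 3. All 6 ITPR1 points with BRAFi + MEKi lie above the other 6 in 1205Lu, and without DOX the ITPR3 points with BRAFi + MEKi lie below the DMSO points in each line.

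ITPK1 rose with BRAFi + MEKi in A375, from 2130.3, 2044 and 1807 to 4714, 4709 and 3881, by 1.15 ± 0.12 on the log2 scale or 2.22-fold (limma adjusted p = 6.88e-06). The fall of ITPK1 with DOX in A375 uses the same BRAFi + MEKi libraries, so the rise and that fall are not independent. In WM793 ITPK1 was higher by 0.83 on the log2 scale or 1.78-fold, and in both lines the libraries did not overlap. In 1205Lu it went from 3812, 3815 and 5657 to 8709, 4902 and 5188, which overlap, and the difference of 0.48 ± 0.25 was not called (limma adjusted p = 0.172). PLCG1 fell in WM793, from 14480, 22176 and 20019 to 11749, 11805 and 11688, by 0.66 ± 0.14 (limma adjusted p = 0.00197). It fell in A375, from 4564 ± 649 to 3129.6 ± 142 (limma adjusted p = 0.008, and 0.0555 after rescaling). In 1205Lu it was 9242 ± 1113 and 9804 ± 1286, with a 95% interval of the log2 difference of -0.23 to 0.40. The PLCG1 response was lower in WM793 than in 1205Lu by a log2 difference of -0.75 ± 0.20 (limma adjusted p = 0.0116) and lower in A375 than in 1205Lu by -0.62 ± 0.20 (adjusted p = 0.0378). The latter was lost in 5 of 12 fits without 1 library, which were 1205Lu DMSO replicate 1 (0.113), 1205Lu BRAFi + MEKi replicate 1 (0.104), A375 DMSO replicate 2 (0.12) and A375 BRAFi + MEKi replicates 2 (0.0799) and 3 (0.0622). It was also lost after rescaling (0.078).

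RYR2 fell with BRAFi + MEKi in A375 by 0.70 ± 0.19 (limma adjusted p = 0.00887), from 424 ± 57.8 to 259.6 ± 20.0. In WM793 it was 0.866, 10.97 and 14.5 with BRAFi + MEKi, below the DMSO values above, a log2 difference of -2.96. Replicate 1, at 0.866, lies below the other BRAFi + MEKi libraries and makes this difference larger. PLCG2 in WM793 went from 0, 1.01 and 1.38 to 0, 10.0 and 30.7, which overlap, a difference of 2.06, and of 3.47 without BRAFi + MEKi replicate 1, whose value is 0. PLCG2 in 1205Lu was 306, 273 and 451 with BRAFi + MEKi and in A375 153, 67.3 and 148, both overlapping DMSO.

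In all, 3 of 7 genes were called for BRAFi + MEKi in 1205Lu (30.9% of all genes), 4 of the 4 tested in WM793 (37.3%) and 4 of 7 in A375 (39.5%). After rescaling it was 2 of 4 in WM793. The median log2 difference of all genes was 0.11, 0.15 and 0.06 in these lines and 0.16, 0.33 and 0.20 after rescaling to the same total. For the difference between responses, 2 of 4 passed for WM793 against 1205Lu (14.5% of all genes), 2 of 7 for A375 against 1205Lu (14.7%) and 0 of 4 for A375 against WM793 (22.8%) by limma, with 2 of 4 in the last at an unadjusted p under 0.05, beside 34.0% of all genes. In that last comparison ITPR3 (-0.57, limma adjusted p = 0.0591) sat beside the threshold. It was called with the replicate block (0.00773), after rescaling (0.0364), with array weights (0.046) and with a minimum mean of 10 (0.0466). It was also called without WM793 BRAFi + MEKi replicate 1 (0.0492), WM793 DMSO replicate 2 (0.0428) or A375 DMSO replicate 2 (0.021), and ITPR2 was called without WM793 DMSO replicate 3 (0.029). The ITPK1 response was higher in A375 than in 1205Lu by 0.67 ± 0.27, which was not called (limma adjusted p = 0.0998), but was at 0.94 without 1205Lu BRAFi + MEKi replicate 1 (0.0119).

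**Figure D4:**
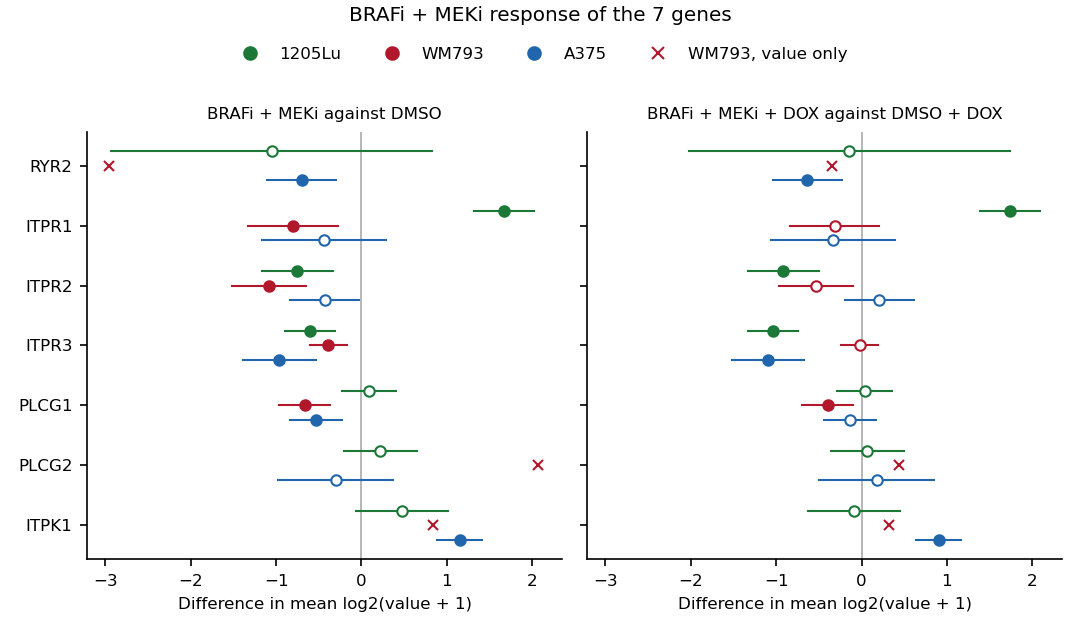
Difference in mean log2(value + 1) with BRAFi + MEKi (horizontal axis) for the 7 genes without DOX (left) and with DOX in both arms (right), with 95% intervals in the 3 lines. Filled points passed an adjusted p of 0.05: 3 genes in 1205Lu, 4 in WM793 and 4 in A375 on the left, and 3, 1 and 3 on the right. Crosses are RYR2, PLCG2 and ITPK1 in WM793, which carry no test.

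With DOX in both arms the drugs again changed ITPR1, ITPR2 and ITPR3 in 1205Lu. ITPR1 rose from 1808, 2526 and 2008 to 8287, 6280.1 and 6623, by 1.74 ± 0.16 on the log2 scale (limma adjusted p = 7.12e-06), while ITPR2 fell by 0.92 ± 0.19 and ITPR3 by 1.04 ± 0.14 (adjusted p = 0.00318 and 0.000106). In A375 ITPK1 rose from 1374, 1515 and 1395 to 2893, 2916 and 2261 (0.90 ± 0.12, limma adjusted p = 9.94e-05) and ITPR3 fell by 1.10 ± 0.20 (adjusted p = 0.000819). RYR2 in A375 fell by 0.63 ± 0.19 (limma adjusted p = 0.0199), from 522, 384 and 543 to 283, 264 and 388, with libraries that overlap. Leaving out replicate 1 or 3 of DMSO + DOX ended the call (0.0606 and 0.0714), as did leaving out replicate 1 or 2 of BRAFi + MEKi + DOX (0.075 and 0.0795), rescaling (0.0529) and a fit of only the groups compared (0.0558). In WM793 the libraries of RYR2 overlapped between DMSO + DOX and BRAFi + MEKi + DOX, a log2 difference of -0.35. Of the 4 genes tested in WM793, PLCG1 was called, at 14139 ± 1669 and 10682 ± 316, a difference of -0.40 ± 0.14 (limma adjusted p = 0.0429). It was lost in 5 of 6 fits without 1 library (adjusted p between 0.0756 and 0.164, each except the one without DMSO + DOX replicate 1), after rescaling (-0.22, 0.23) and with no filter on low values (0.0573). ITPR2 in WM793 differed by -0.53 (limma adjusted p = 0.0588) and was called with the replicate block (0.0241), with array weights (0.00133) and with only the groups compared (0.0103). The counts called, 3 of 7 in 1205Lu, 1 of 4 in WM793 and 3 of 7 in A375, stand beside 28.2%, 31.7% and 31.0% of all genes.

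The rest of the pathway was described over 219 other genes in 13 lists. With BRAFi + MEKi, 33 rose and 52 fell of 201 tested in 1205Lu, 49 rose and 52 fell of 200 in WM793, and 54 rose and 45 fell of 211 in A375. After rescaling libraries to the same total these became 34 and 45, 68 and 36, and 64 and 39. Rescaling moved all genes together, so nothing about these genes is read from that shift. Of all genes tested 16.5%, 20.4% and 20.5% rose and 14.4%, 16.9% and 19.0% fell in 1205Lu, WM793 and A375, and after rescaling 17.9%, 27.3% and 25.6% rose and 12.9%, 12.2% and 15.4% fell. These shares are the background for the list counts below, without and with rescaling. Among the lists, mitochondrial calcium uptake, the channel and its partners that carry calcium into mitochondria, had 7, 5 and 6 falls and 0, 0 and 1 rise of 11 genes in 1205Lu, WM793 and A375, with median log2 differences of -0.46, -0.26 and -0.46 (-0.40, -0.06 and -0.31 after rescaling, with 6, 4 and 4 falls). MCUB, a subunit that dampens the mitochondrial uniporter, fell in 1205Lu from 329 ± 86.7 to 76.9 ± 6.21 and in A375 from 422 ± 43.4 to 160 ± 9.43. VDAC1, a channel of the outer mitochondrial membrane, fell in WM793 from 13910 ± 773 to 6935 ± 350 (limma adjusted p = 2.91e-06).

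Upstream of IP3, the phospholipases C had 2 rises and 4 falls of 11 tested in 1205Lu, 2 and 3 of 11 in WM793, and 4 and 0 of 12 in A375. After rescaling the WM793 counts became 5 and 3, with the other lines as given. PLCE1, a phospholipase C that responds to Ras-family proteins, rose in 1205Lu from 1263 ± 193 to 2336 ± 212 and in WM793 from 256 ± 62.7 to 1309 ± 25.6, by 2.38 ± 0.17 on the log2 scale (limma adjusted p = 3.26e-07). PLCB4 fell in these lines, with log2 differences of -3.27 ± 0.64 and -2.85 ± 0.42 (limma adjusted p = 0.00163 and 0.000115). Activators of phospholipase C gamma included 5 rises and 9 falls of 22 in 1205Lu, 6 and 5 of 23 in WM793, and 7 and 7 of 27 in A375, and after rescaling 5 and 8, 7 and 4, and 7 and 7. The receptor tyrosine kinase NTRK2 rose from 274 ± 119 to 3282 ± 1560 in 1205Lu and from 19.5 ± 3.39 to 258 ± 81.4 in WM793, MET fell in 1205Lu from 848 ± 393 to 91.0 ± 51.1, and VAV3 rose in A375 from 19.7 ± 9.91 to 145 ± 56.6. For the supply of inositol lipids, PITPNM2, a phosphatidylinositol transfer protein, rose in each line by 1.44 ± 0.21, 1.44 ± 0.13 and 1.53 ± 0.24 (limma adjusted p = 0.00021, 1.74e-06 and 0.000165).

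Among the inositol phosphate kinases, 3, 2 and 4 of 10 rose and 1 fell in each of 1205Lu, WM793 and A375, and after rescaling 3, 5 and 6 rose and 1 fell in each. ITPKA, which phosphorylates IP3, fell in 1205Lu (-1.57) and A375 (-2.04) and rose in WM793 (1.48), with means of no more than 74.8, and in 1205Lu the call was lost without DMSO replicate 2 (limma adjusted p = 0.0816) or BRAFi + MEKi replicate 1 (0.0785). Of 23 phosphatases, 5 rose and 2 fell in 1205Lu, 7 and 7 in WM793, and 6 and 4 in A375, and after rescaling 5 and 2, 8 and 4, and 9 and 4. NUDT4, a diphosphoinositol polyphosphate phosphatase, rose from 2964 ± 338 to 9626 ± 620 in 1205Lu and from 2101 ± 267 to 8189 ± 644 in A375. SYNJ2, a phosphoinositide phosphatase, fell from 4427 ± 780 to 1012 ± 16.7 and from 1249 ± 82.0 to 425 ± 19.6 in the same lines, and INPP5F fell in WM793 from 11670 ± 2199 to 2904 ± 574. Of the calcium effectors, CAMK4, a calcium and calmodulin dependent kinase, fell in all 3 lines, with log2 differences of -3.53 ± 0.56 in 1205Lu, -2.16 ± 0.26 in WM793 and -2.75 ± 0.22 in A375. NFATC2, a transcription factor switched on by calcineurin, rose in A375 from 1427 ± 290 to 22740 ± 3058 (limma adjusted p = 1e-08) and in 1205Lu from 1351 ± 135 to 3769 ± 1345 (adjusted p = 0.0138, lost without BRAFi + MEKi replicate 2, at 0.0592, or 3, at 0.0627). Regulators of the release channels had 6 rises and 10 falls of 29, 7 and 7 of 28, and 5 and 13 of 31, and after rescaling 6 and 8, 8 and 5, and 6 and 12. RYR1, the release channel of skeletal muscle, fell in A375 from 61.6 ± 33.8 to 3.44 ± 2.86 (limma adjusted p = 0.000768). CASQ2, a calcium binding protein of the reticulum known from heart muscle, rose in WM793 from 1.45 ± 2.51 to 45.5 ± 12.2 (limma adjusted p = 8.06e-05). STIM2, a sensor of reticulum calcium, fell in 1205Lu (-1.42 ± 0.25) and WM793 (-1.22 ± 0.17). Genes of the same list, store-operated and TRPC entry, moved in both directions. CRACR2A fell in A375 (-0.61 ± 0.14), while STIM1 rose in 1205Lu (0.72 ± 0.15), ORAI3 in WM793 (1.46 ± 0.25) and STIMATE in A375 (1.25 ± 0.20).

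**Figure D5:**
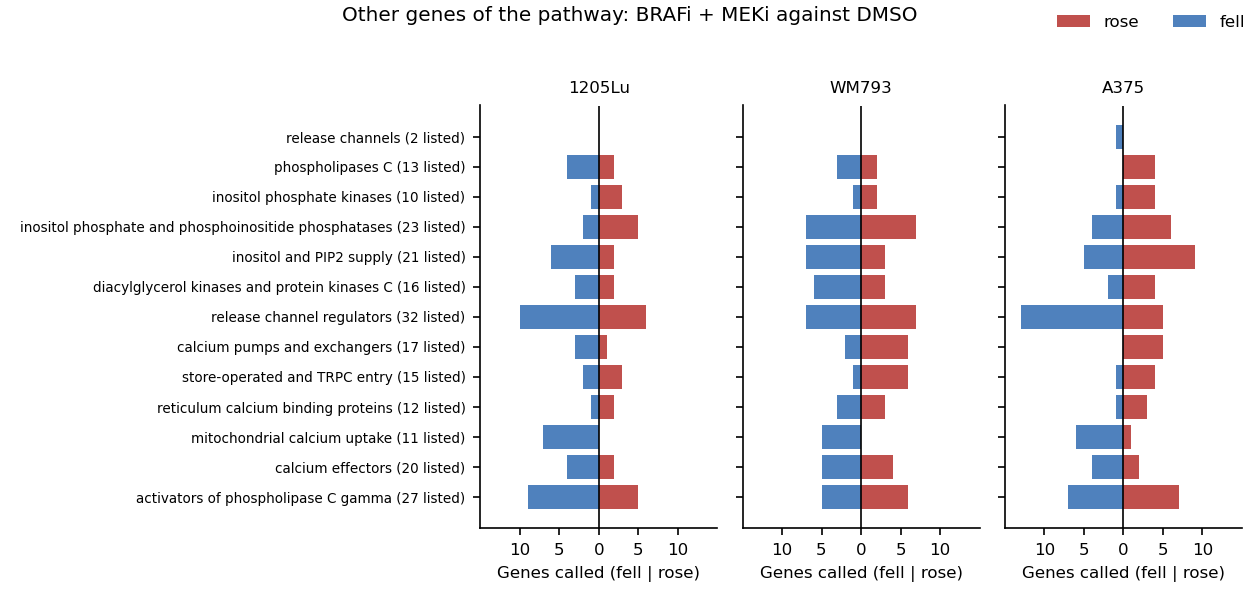
Number of genes called with BRAFi + MEKi against DMSO (horizontal axis, falls to the left and rises to the right of 0) in each of the 13 pathway lists (vertical axis), in the 3 lines. Mitochondrial calcium uptake has 7, 5 and 6 falls against 0, 0 and 1 rise, and after rescaling libraries to the same total inositol and PIP2 supply in WM793 went from 3 rises and 7 falls to 8 and 5, and the calcium effectors from 4 and 5 to 6 and 4 in WM793 and from 2 and 4 to 4 and 2 in A375, shifts of a kind that rescaling also gave over all genes, whose rises went from 54.8% to 69.1% of calls in WM793 and from 52.0% to 62.4% in A375.

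With DOX the number of these genes called varied with the setting. Under DMSO, limma called 0 of 201 in 1205Lu and 0 of 211 in A375, with 21 and 26 at an unadjusted p under 0.05, beside 6.85% and 7.95% of all genes. In WM793 it called 4 of 200, beside 0.512% of all genes, and these fell and were picked out after their values were seen. With the replicate block, which called 284 of all genes, 3 rose and 9 fell, with array weights, which called 419, 2 rose and 13 fell, and after rescaling 1 rose and 3 fell. In A375 the block called 3 of 211 and array weights 1. INPP5F fell from 11670 ± 2199 to 3700 ± 547, by 1.65 ± 0.18 on the log2 scale (limma adjusted p = 0.00179), in every alternative. ASPH, which encodes reticulum proteins including junctate and junctin, fell from 34200 ± 5079 to 20290 ± 751 (limma adjusted p = 0.0125, and between 0.0522 and 0.057 without any 1 DMSO + DOX library). The calcium pump ATP2B4 (limma adjusted p = 0.0476) and SYNJ2 (0.048) were the others, and each was lost in 5 or more of the 6 fits without 1 library, at adjusted p up to 0.17 and 0.194. Both were also lost with no filter on low values (limma adjusted p = 0.0612 for each) and with only the groups compared (0.0772 and 0.0603). Under BRAFi + MEKi, 0 of 200 were called by limma in WM793, with 22 at an unadjusted p under 0.05 (7.95% of all genes), and with array weights 4 rose and 4 fell. In 1205Lu 1 of 201 was, beside 0.334% of all genes, the receptor gene KDR, from 18.8 ± 3.23 to 116 ± 69.4 (limma adjusted p = 0.0446, and between 0.0901 and 0.222 in the 5 of 6 fits without 1 library that lost it). The KDR call was also lost with a pseudocount of 0.1 (limma adjusted p = 0.0508), no filter on low values (0.0647) and only the groups compared (0.238). With the replicate block 2 of 201 were called there, and with array weights 5 rose and 6 fell. In A375 2 of 211 were, beside 1.52% of all genes, 5 with the block and 7 with array weights, which called 601 and 1035 of all genes. SYNJ2 rose from 425 ± 19.6 to 636 ± 7.96 (limma adjusted p = 0.008, 0.0542 without BRAFi + MEKi replicate 1 and 0.057 with only the groups compared), and NUDT4 fell from 8189 ± 644 to 5196 ± 442 (adjusted p = 0.038, lost in 5 of 6 fits without 1 library, at 0.0645 to 0.225). Both had moved the opposite way with BRAFi + MEKi in A375, and the 2 comparisons share the BRAFi + MEKi libraries.

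Other genes were ranked by the Pearson correlation of log2(value + 1) with RYR2, PLCG2 or ITPK1 over the 36 libraries, among 17294 genes with a symbol and a mean of at least 10 in some group. The libraries share lines, treatments and scaling, so the values describe likeness of pattern and carry no test. WDR55 (0.90), PAGE1 (0.90) and IQCK (0.89) were most like RYR2. Their correlations were 0.72, 0.51 and 0.64 within WM793 and 0.22, 0.61 and 0.70 within A375. In 1205Lu, where RYR2 was 11.3 or less, that of WDR55 was 0.30 and that of IQCK 0.0035, and PAGE1 was listed at 0. PARP11 (0.90), BST2 (0.90) and RARB (0.89) were most like PLCG2, with correlations of 0.77, 0.80 and 0.82 within WM793, -0.42, -0.36 and -0.13 within A375, and 0.36, -0.19 and 0.40 within 1205Lu. PTPRZ1 (0.86), CDC42EP5 (0.84) and GAS7 (0.83) were most like ITPK1, with correlations inside the lines of 0.93, 0.86 and 0.93 in A375, 0.79, 0.71 and 0.81 in WM793, and 0.66, 0.67 and 0.38 in 1205Lu.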

How the data were processed

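RNA-Seq of 36 libraries was analysed, 3 replicates in each of 12 groups, which the study's methods describe as independent experiments. The deposited values are a normalized expression signal per gene, not counts. The authors aligned reads with STAR to GRCh38, estimated gene expression with RSEM on GENCODE 35 and normalized with DESeq2. Whole reads could not be recovered from the values, so depth is approximate and no count test was run. Differences were tested on log2(value + 1) with limma 3.58.1 (R 4.3.3), a moderated test with a mean-dependent prior, and are on that scale, which understates changes of low genes. A gene entered a fit when any of its groups averaged 1 or more, which all 7 did in the fits reported. With a minimum mean of 10, RYR2 left the 1205Lu fit. Comparisons within a line used its 12 libraries, and comparisons between lines used all 36. P-values are two-sided and adjusted by Benjamini-Hochberg over all genes tested, with 0.05 as the threshold. Genes not on the list of 7 were named as the largest called rise and fall of each of 13 pathway lists with a mean of at least 10, and as the 3 genes most correlated with RYR2, PLCG2 or ITPK1. The 7 genes and all lists were chosen with earlier results of these data known. In comparisons that involve WM793, RYR2, PLCG2 and ITPK1 are values with no test and counts are over the other 4 genes, a limit set after the values were seen. Positions follow GENCODE 44, matched by gene identifier.

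Replicate numbers were checked over all genes by correlating deviations from group means. Between BRAFi + MEKi and BRAFi + MEKi + DOX, every same-numbered pair exceeded 0.1 in 1205Lu (0.124 to 0.298) and in WM793 (0.122 to 0.281), so the numbers were taken to pair those libraries. Among genes with a mean of at least 30, every pair also exceeded 0.1 in the other DOX comparisons. Alternatives were pseudocounts of 0.1 and 10, no filter on low values, a minimum mean of 10, a fit of only the groups compared, the replicate number as a block, libraries rescaled to the same total, array weights, and leaving out each library in turn. The fits were tested on simulated data. Tables and plots were made with Python 3.11.15, pandas 2.3.3 and matplotlib 3.10.9.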

Additional observations from a re-analysis of the deposited data

Results flagged for a closer look

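The response of ITPR1 to BRAFi + MEKi differed between lines by a test of the difference itself, at -2.476 on the log2 scale for WM793 against 1205Lu and -2.116 for A375 against 1205Lu (limma adjusted p = 4.36e-05 and 0.000359). All 3 1205Lu libraries with BRAFi + MEKi lay above DMSO, and all 3 WM793 libraries lay below it.

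The response of PLCG1 differed in the same comparisons, at -0.747 and -0.62 (limma adjusted p = 0.0116 and 0.0378). The second value lost its call in 5 of 12 fits without 1 library and after rescaling.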

How the results depend on the processing

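Of 108 tested values of the 7 genes, 29 took both signs over the alternatives, and 0 of these were called in any of them, so no direction is read from them. They include RYR2 for BRAFi + MEKi with DOX in 1205Lu (-0.975 to 0.938) and ITPR1 for DOX under BRAFi + MEKi in A375 (-0.458 to 0.282). The settings other than leaving out a library kept sign and call in 798 results, added a call in 13, lost one in 8 and turned the sign of an uncalled value in 11, and leaving out a library did so in 741, 7, 16 and 58. Counts of genes called changed as follows, and the cause was not tested. For BRAFi + MEKi in WM793 the count of 4 became 2 after rescaling and 3 to 4 without 1 library. For BRAFi + MEKi with DOX in WM793 the count of 1 became 0 with no filter on low values or after rescaling, 2 with only the groups compared, the replicate block or array weights, and 0 to 1 without 1 library. For A375 against WM793 in the response to BRAFi + MEKi the count of 0 became 1 with a minimum mean of 10, the replicate block, rescaling or array weights, and 0 to 1 without 1 library. For A375 against 1205Lu in the same response the count of 2 became 1 after rescaling, 3 with array weights and 1 to 2 without 1 library. With array weights, DOX under BRAFi + MEKi called 1 in place of 0 in 1205Lu and 2 in place of 1 in A375. Smaller shifts in A375 were 4 to 3 after rescaling, to 5 with array weights and 4 to 5 without 1 library for BRAFi + MEKi, and with DOX 3 to 2 after rescaling or with only the groups compared and 2 to 3 without 1 library. The level with DMSO in A375 against 1205Lu went from 5 to 6 with a pseudocount of 10 or only the groups compared. The replicate block changed no other count of these genes. The pairing by number depends on the filter: over all genes tested, 2 of 12 comparisons within a line had every same-number pair above 0.1, and with a mean of at least 30 it was 8 of 12, including all 6 DOX comparisons. Counts with the block therefore stand beside the DOX results. No paired analysis was possible for levels between lines with DMSO because a replicate number belongs to 1 line. The fit of only the groups compared could not be made for the difference between DOX effects, which uses all 4 groups of a line. The same settings for named pathway genes and for counts over all genes were added after the values were seen. Low values, such as RYR2 in 1205Lu and in WM793 under BRAFi + MEKi without DOX, and PLCG2 in untreated WM793, are set by few reads and by the pseudocount.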

Other observations

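The other ryanodine receptor genes were low in most groups. RYR1 in A375 was 96.8, 29.5 and 58.4 with DMSO, 97.2, 61.6 and 78.4 with DMSO + DOX, and at most 9.40 in any A375 library with BRAFi + MEKi. In the other lines its highest library was 68.6, in 1205Lu with BRAFi + MEKi + DOX. RYR3 was listed at 0 in all DMSO libraries of WM793 and A375 and lay between 4.79 and 28.3 in 1205Lu with DMSO.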
